A study of Nicotiana benthamiana with 28 samples.

Results

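ΔCT line 1 of Nicotiana benthamiana was compared with rxeg1, the receptor knockout that the labels give as its genotype. The comparison used all 4 RNA sequencing libraries of ΔCT line 1 and all 4 of rxeg1, 8 of the 28 libraries of the series, chosen by their labels alone. ΔCT line 1 is titled pRXEG1:RXEG1synΔCT-1, a construct behind the RXEG1 promoter, and its genotype label is that of the rxeg1 knockout. That both share the knockout rests on this label and was not checked in the data. At 2 genes described below ΔCT line 1 lay on the side of wild type, apart from rxeg1 and every other line, though mostly not at the wild-type level. What this says of the line's origin was not tested. The labels spell out neither ΔCT nor syn, and they do not say how the line was made or whether it is 1 insertion event. In each genotype 2 libraries came from 12-day-old seedlings after a mock treatment and 2 after XEG1 protein, both for 3 h. The other 20 libraries belong to 5 more genotypes with the same treatments, and they serve here only to place ΔCT line 1. They are ΔCT line 2 (the same construct, a second line), the Δ90-95/Q786AK791A line and the Δ90-95/Δ786-792 line (altered constructs on the same knockout), the sobir1/sobir1-like knockout, and wild type.

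XEG1 is a xyloglucan-degrading enzyme secreted by the soybean pathogen Phytophthora sojae. Nicotiana benthamiana perceives it at the cell surface with RXEG1, a leucine-rich repeat receptor-like protein that has no kinase domain of its own. Receptors of this type work with the receptor kinase SOBIR1, and their activation changes the expression of defence genes. Whole seedlings were sequenced, so fewer cells of a type and less RNA per cell cannot be told apart in any difference below.

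Levels were TPM, a transcript abundance corrected for gene length and scaled to the same total in each library, for 59814 gene identifiers that came without gene names. RXEG1 itself, the construct, markers of seedling tissues and gene groups by function were therefore not examined, and genes are given by identifier. Of the identifiers, 36653 averaged 1 TPM or more across these 8 libraries and were tested on log2(TPM + 1), a scale that understates changes of genes of low level. The number of genes at 1 TPM or more was 36650 ± 480 in ΔCT line 1 and 35830 ± 1110 in rxeg1 (SD, n = 4 each; exact permutation test, two-sided p 0.171, where the smallest possible p is 0.0286). Sequencing depth cannot be read from TPM and is unknown here.

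The libraries of rxeg1 fell into pairs by replicate number, and those of ΔCT line 1 did not. On the first principal component, which held 51.1% of the variance, the ΔCT line 1 libraries lay between 27.5 and 32.4. The rxeg1 libraries of number 2 lay at 16.1 and 14.8 and those of number 1 at -74.6 and -75.2. Across genes, ΔCT line 1 libraries correlated at 0.951 to 0.978 with rxeg1 libraries of number 2, and at 0.929 to 0.955 with those of number 1 (Pearson's r of log2 levels). Within rxeg1, libraries of the same number correlated at 0.987 to 0.989 across treatments, and libraries of different numbers at 0.958 to 0.959. The difference between replicate 1 and replicate 2 of a gene in mock correlated with that after XEG1 at -0.016 in ΔCT line 1 and at 0.731 in rxeg1, across 36653 genes that are not independent of each other. A test that takes the 4 rxeg1 libraries as independent does not account for this, and the labels do not say what a replicate number stands for. The second component, with 23.5% of the variance, set ΔCT line 1 mock replicate 2 at 56, apart from the other 3 libraries of that line, and the rxeg1 libraries of number 2 at -40.1 and -44.6.

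**Figure D1:**
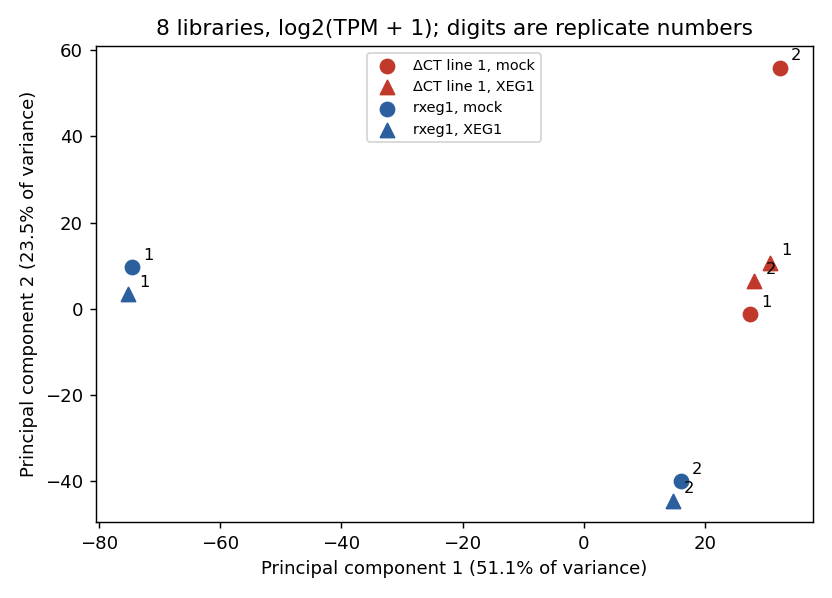
First and second principal components of log2(TPM + 1) over the genes tested, in units of the component scores, with 1 point per library (red ΔCT line 1, blue rxeg1, circles mock, triangles XEG1, digits the replicate number). Both rxeg1 libraries of number 1 lie near -75 on the first axis, while those of number 2 and all 4 of ΔCT line 1 lie above 14.

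Between ΔCT line 1 and rxeg1, over both treatments, 725 genes differed, 289 higher and 436 lower in ΔCT line 1 (limma with treatment as a covariate, adjusted p under 0.05). These are 1.98% of the genes tested, with 0.788% higher and 1.19% lower. Their differences were moderate, with a median log2 difference of 0.80 among the higher and -0.84 among the lower genes, beside 0.08 over all genes tested. An absolute log2 difference of at least 1 was reached by 68 higher and 123 lower genes, and the called sizes ran from 0.41 to 3.28 with a median standard error over all genes of 0.17. Before adjustment 8402 genes had a p under 0.05, where 1833 would be reached if no gene differed and libraries were independent. All 4 libraries of one genotype lay beyond all 4 of the other for all 289 higher and 429 of the 436 lower genes. The same held for 6879 genes, or 18.8% of those tested, so separation of the libraries alone was common.

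This count moved widely with the treatment of the paired rxeg1 libraries and with single libraries of either genotype left out, and the cause was not tested. When libraries of a genotype with the same replicate number were taken as correlated units, with an estimated correlation of 0.62, limma called 3 genes, 2 higher and 1 lower in ΔCT line 1. When mock and XEG1 libraries were averaged into 2 values per genotype it called 0 genes, and 3284 had a p under 0.05 before adjustment. Without both rxeg1 libraries of number 1 there were 1102 calls (274 higher, 828 lower), of which 434 were among the 725. Without both rxeg1 libraries of number 2 there were 16151 calls (12903 higher, 3248 lower), of which 722 were among the 725. Without both ΔCT line 1 libraries of number 1 there were 15 calls, 7 of them among the 725, and without both of number 2 there were 3, of which 0 were among the 725. Leaving out 1 library of ΔCT line 1 gave 415 calls with mock replicate 1 dropped, 8 with mock replicate 2, and 4 with either XEG1 library. Leaving out 1 library of rxeg1 gave 44 calls with mock replicate 1 dropped, 787 with mock replicate 2, 240 with XEG1 replicate 1 and 290 with XEG1 replicate 2. With all 8 libraries kept, limma called 267 genes with no filter, 1410 with median-ratio scaling and 3064 when all 14 groups were fitted together. The same 3 genes were called in all 8 fits with 1 library left out and with correlated units, and they are described first below. Without both ΔCT line 1 libraries of number 2 each of the 3 lost its call (limma adjusted p 0.0529 for Niben101Scf02435g01015, 0.129 for Niben101Scf01478g00014 and 0.0525 for Niben101Scf00946g00011). At least 4 of the 8 fits called 132 of the 725 genes, and none of the 8 called 146 of them.

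**Figure D2:**
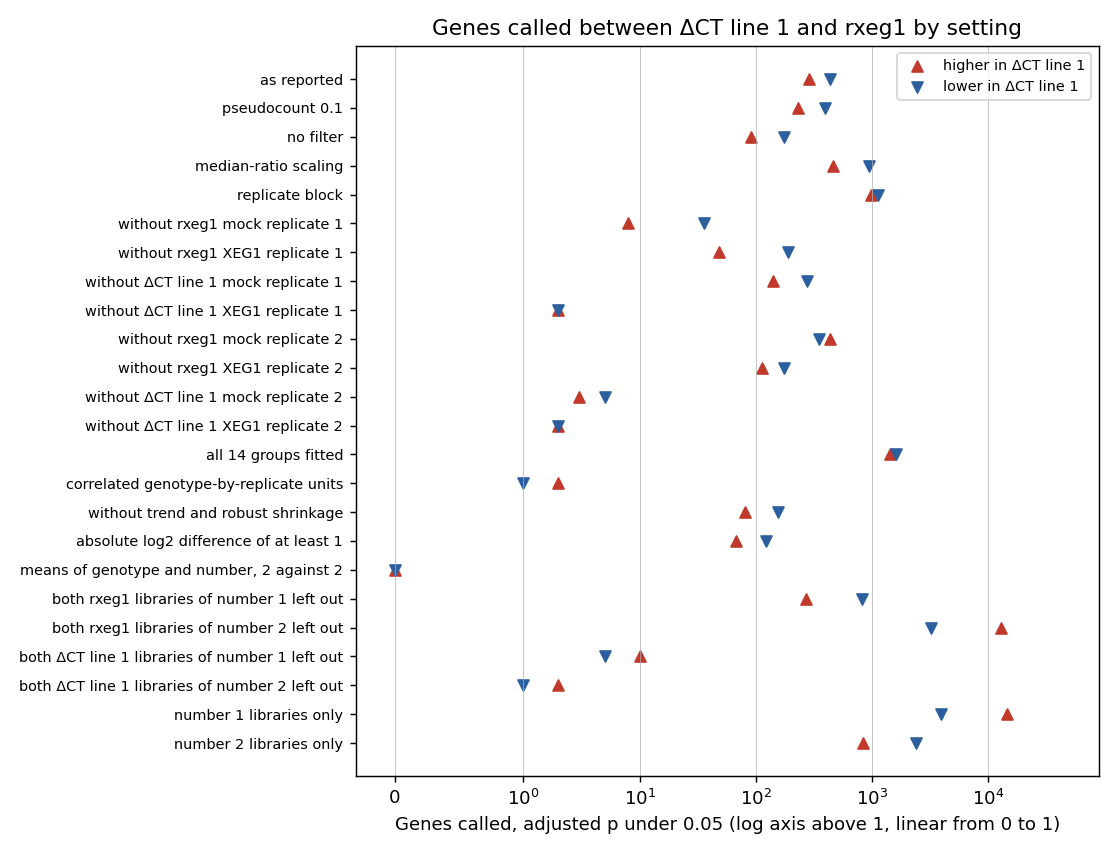
Number of genes called between ΔCT line 1 and rxeg1 (horizontal axis, logarithmic above 1 and linear below) under each way of fitting or choosing the libraries (rows), with upward triangles for genes higher and downward triangles for genes lower in ΔCT line 1. Counts run from 0 with 2 averaged values per genotype to 14726 higher and 3967 lower with libraries of number 1 only.

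The called genes were shifted to a similar extent in both treatments and in both replicate numbers. All 725 had the same sign in mock and after XEG1, as had 30177 of all 36653 genes, and 262 higher and 395 lower genes differed by at least 0.5 in both treatments. The 289 higher genes had a median log2 difference of 0.85 in mock and 0.75 after XEG1, and the 436 lower genes of -0.90 and -0.76. Taken by replicate number, the higher genes had medians of 0.81 in libraries of number 1 and 0.77 in those of number 2, and the lower genes of -0.76 and -0.86. Over all genes tested the medians had opposite signs, 0.24 with number 1 and -0.11 with number 2. The called genes were those in which the rxeg1 libraries disagreed little. Their median absolute difference between rxeg1 numbers was 0.19 for the higher and 0.18 for the lower genes, against 0.35 over all genes, and between ΔCT line 1 numbers it was 0.14, 0.14 and 0.12. Signs and sizes here describe genes that the same libraries chose.

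**Figure D3:**
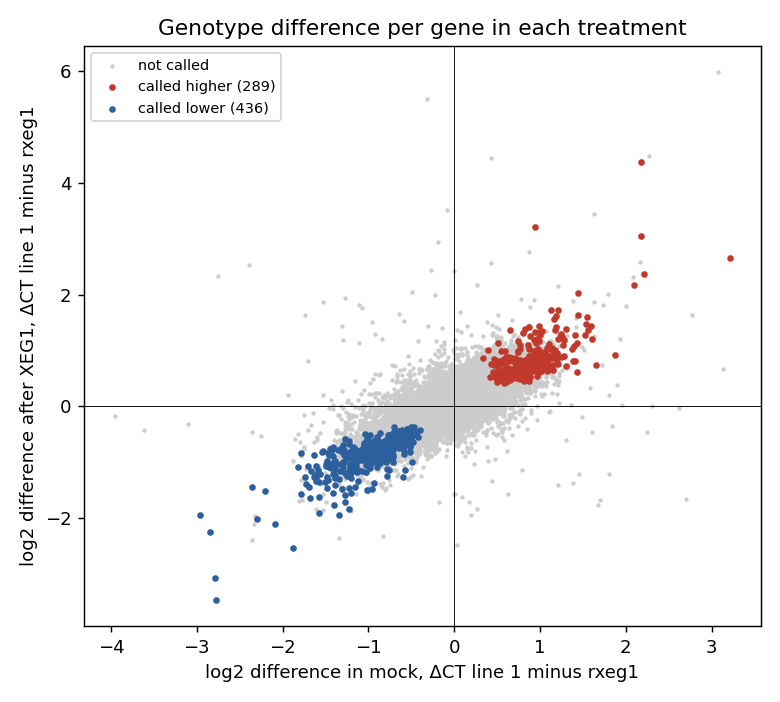
Log2 difference of ΔCT line 1 minus rxeg1 per gene in mock (horizontal) and after XEG1 (vertical), red for the 289 genes called higher, blue for the 436 called lower and grey for the rest. The called genes fill the upper right and lower left corners, and the grey points far from the diagonal include genes listed at 0 in some libraries.

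Calls were more frequent among abundant genes. Of genes with a mean log2 level under 2, 71 of 7255 were called (0.979%), and of those over 6, 168 of 2903 (5.79%). Between these, 191 of 17211 genes with a mean level of 2 to 4 were called (1.11%) and 295 of 9284 with a level of 4 to 6 (3.18%). The median absolute log2 difference of the called genes ran the other way, from 1.04 at the lowest levels through 0.94 and 0.76 to 0.72 at the highest. The calls were spread over 643 scaffolds (the first part of an identifier), with at most 5 on a scaffold and 13 scaffolds holding 3 or more. Among the 681 called genes with a tested neighbour, 9.69% had a called gene as the next tested identifier on the scaffold, against 3.22% among all genes tested that have one.

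The 3 genes called whichever library was left out had large differences and little spread, which for Niben101Scf00946g00011 rests on listed zeros in rxeg1. Niben101Scf02435g01015 had 12.6 and 16.5 TPM in mock and 11.3 and 10 TPM after XEG1 in ΔCT line 1, against 0.609 and 0.724 TPM in mock and 0.600 and 1.11 TPM after XEG1 in rxeg1. Every ΔCT line 1 library lay at 10 TPM or more and no rxeg1 library above 1.11 TPM. The log2 difference was 2.94 (SE 0.18, limma adjusted p 0.00109, and 0.0161 with correlated units). This gene was also the single call, 0.00273% of the genes tested, when mock libraries alone were compared (log2 difference 3.21, limma adjusted p 0.0428). In mock alone limma called 0 genes with a pseudocount of 0.1 (3476 at an unadjusted p under 0.05) or with no filter (4180), and 102 when all 14 groups were fitted. Niben101Scf01478g00014 had 4.83 and 3.04 TPM in mock and 2.56 and 3.98 TPM after XEG1 in ΔCT line 1, against 30.6, 34.1, 46.2 and 44.7 TPM in rxeg1 in the same order. The ranges lay far apart, with a log2 difference of -3.12 (SE 0.20, limma adjusted p 0.00109, and 0.0404 with correlated units). Niben101Scf00946g00011 had 4.46 and 2.93 TPM in mock and 4.56 and 3.80 TPM after XEG1 in ΔCT line 1 and was listed at 0 in all 4 rxeg1 libraries (limma adjusted p 0.00153, and 0.0161 with correlated units). It was the single gene listed at 0 in every library of one of these genotypes and above 1 TPM in all 4 of the other. It was also listed at 0 in some but not all libraries of each of the other 5 genotypes, so a listed 0 may be a failed estimate, and no fold is given.

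Other genes among the largest called differences rested on more variable libraries. Niben101Scf00739g00003 had 1.49 and 22.2 TPM in mock and 28.6 and 34.5 TPM after XEG1 in ΔCT line 1, against 0.458 to 0.932 TPM in rxeg1. The lowest ΔCT line 1 library, mock replicate 1, lay close to rxeg1, and the log2 difference of 3.28 carried a standard error of 0.66 (limma adjusted p 0.047, and 0.495 with correlated units). Levels of this gene also varied widely within the Δ90-95/Q786AK791A line, from 4.70 to 56.4 TPM. Niben101Scf03947g01007 was listed at 0 in 2 ΔCT line 1 libraries and had 0.356 and 0.316 TPM in the other two, against 5.05, 9.68, 2.15 and 28.5 TPM in rxeg1 (log2 difference -2.93, SE 0.58, limma adjusted p 0.0449, and 0.39 with correlated units). The groups did not overlap, but the rxeg1 libraries spanned a wide range. With Niben101Scf02435g01015 and Niben101Scf01478g00014, these are the largest differences in each direction among 714 called genes with separated libraries and a mean log2 level above 1.

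At a few genes ΔCT line 1 lay on the side of wild type, apart from rxeg1 and every other genotype. These genes were picked after their values were seen. In Niben101Scf02435g01015 the wild-type libraries held 6.30 to 8.93 TPM, all below the 10 to 16.5 TPM of the ΔCT line 1 libraries. The 20 libraries of the remaining 5 genotypes, rxeg1 among them, lay between 0.258 and 1.16 TPM. Niben101Scf02316g03001 showed the opposite order, with 11 and 11.9 TPM in mock and 9.90 TPM in both XEG1 libraries of ΔCT line 1, against 32.9, 25.6, 34.2 and 29.6 TPM in rxeg1. Wild type had 7.04 and 11.7 TPM of it in mock and 3.70 and 4.75 TPM after XEG1, and the other 4 genotypes 26.3 to 43.9 TPM. ΔCT line 1 thus overlapped wild type alone, and only through wild-type mock replicate 2. For this gene the log2 difference from rxeg1 was -1.43 (SE 0.13, limma adjusted p 0.00938, and 0.10 with correlated units). These are the 2 genes in which all 8 libraries of ΔCT line 1 and wild type lay beyond the remaining 20, with gaps of 1.76 and 1.04 log2 units. The same count was 20 for sobir1/sobir1-like with wild type and 2 for the Δ90-95/Q786AK791A line with wild type, none with a gap over 0.5, and 0 for rxeg1, ΔCT line 2 and the Δ90-95/Δ786-792 line.

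**Figure D4:**
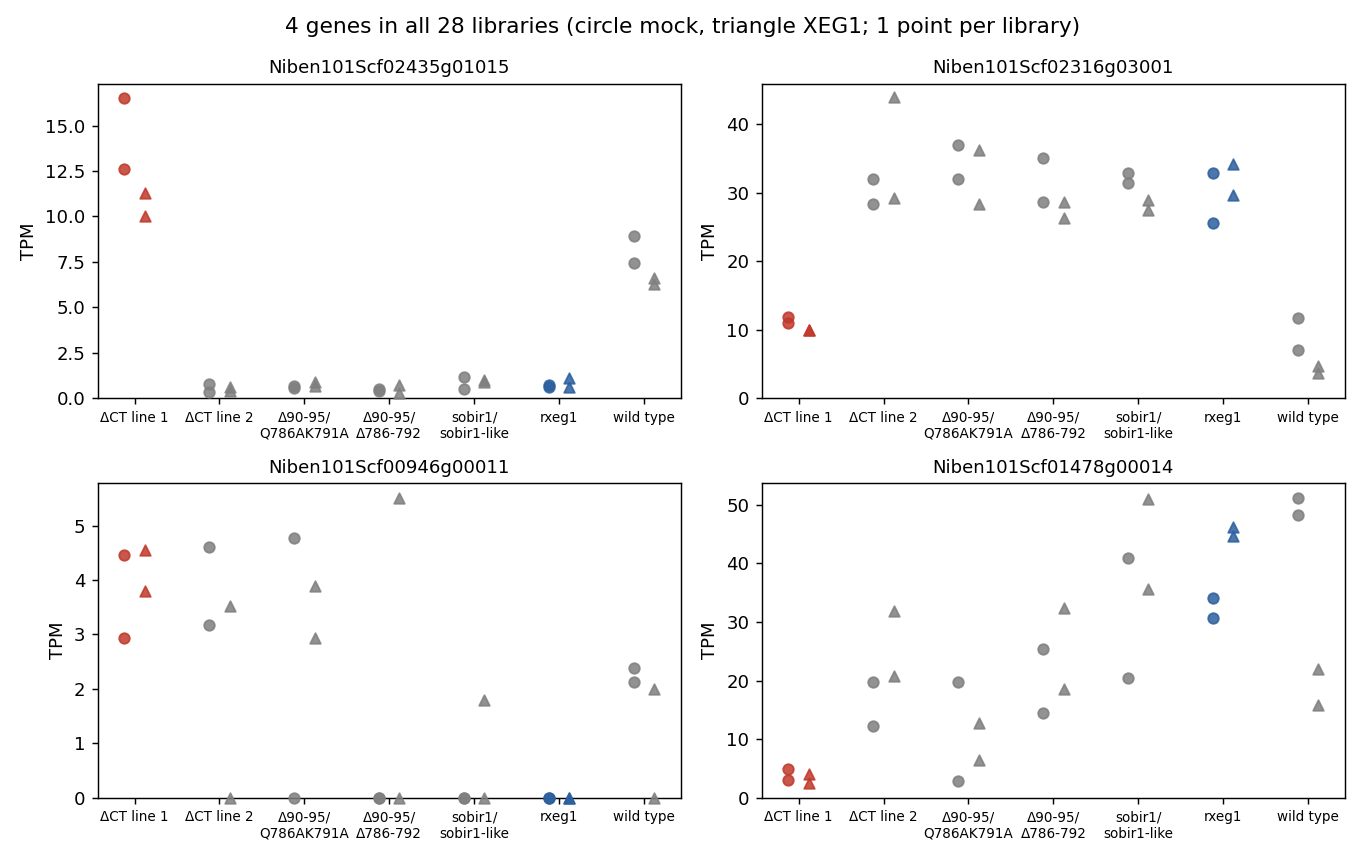
TPM of 4 genes in all 28 libraries (vertical axes from 0, 1 point per library, circles mock, triangles XEG1), with ΔCT line 1 in red at the left, rxeg1 in blue and other genotypes in grey. In the upper panels ΔCT line 1 lies on the side of wild type, at 10 to 16.5 TPM of Niben101Scf02435g01015 and 9.90 to 11.9 TPM of Niben101Scf02316g03001. The lower panels show the other 2 genes called in every fit with 1 library left out.

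At a further 4 genes ΔCT line 1 lay on the side of wild type and sobir1/sobir1-like, with all 12 libraries beyond the 16 of rxeg1 and the other construct lines. Niben101Scf03804g03007 had 12.1 to 13.1 TPM in ΔCT line 1, against 6.18 to 7.57 TPM in rxeg1, with 13.9 to 16.5 TPM in sobir1/sobir1-like and 17.8 to 22.1 TPM in wild type (log2 difference from rxeg1 0.78, SE 0.12, limma adjusted p 0.0291, and 0.30 with correlated units). Niben101Scf03925g01009 had 11.9 to 18.3 TPM in ΔCT line 1, against 4.85 to 8.10 TPM in rxeg1. Wild type had 31.5 and 33.5 TPM of it in mock and 85.4 and 104 TPM after XEG1, above every ΔCT line 1 library. The other two were lower in ΔCT line 1. Niben101Scf00341g09018 had 0.228 to 1.01 TPM there, against 1.93 to 3.51 TPM in rxeg1, and Niben101Scf01124g00004 had 0 to 0.552 TPM, against 3.56 to 7 TPM. With correlated units the other 3 were not called against rxeg1 either, with limma adjusted p 0.253 for Niben101Scf03925g01009, 0.326 for Niben101Scf00341g09018 and 0.10 for Niben101Scf01124g00004. The gap was over 0.5 log2 units for 3 of the 4 genes and 0.40 for Niben101Scf01124g00004. Put in the place of ΔCT line 1, rxeg1 gave 5 such genes and the Δ90-95/Δ786-792 line 2, none with a gap over 0.5, and the other lines gave 0.

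In 94 genes the 4 ΔCT line 1 libraries lay beyond all other 24 libraries, 81 above and 13 below them. Against rxeg1 27 of the 94 were called (17 higher, 10 lower), beside 1.98% of all genes, and nothing is read from this share because the 94 were chosen for lying beyond every rxeg1 library. The median gap was 0.04 log2 units. The same count was 606 for wild type, 106 for the Δ90-95/Q786AK791A line, 17 for ΔCT line 2, 14 for sobir1/sobir1-like, 8 for rxeg1 and 4 for the Δ90-95/Δ786-792 line. A gap over 0.5 was found for 7 genes in wild type, 6 in the Δ90-95/Q786AK791A line and 1 in sobir1/sobir1-like. ΔCT line 2, rxeg1 and the Δ90-95/Δ786-792 line had 0 such genes. In ΔCT line 1 the gap was over 0.5 for 4 genes. Niben101Scf16114g01007 had 3.99 and 4.82 TPM in mock and 3.76 and 3.59 TPM after XEG1 in ΔCT line 1, against 0.870, 1.77, 0.627 and 1.34 TPM in rxeg1 (log2 difference 1.25, SE 0.18, limma adjusted p 0.0252, and 0.224 with correlated units). Niben101Scf11408g01009 had 6.82 to 8.43 TPM in ΔCT line 1, against 2.93 to 4.05 TPM in rxeg1. Niben101Scf05584g04007 had its lowest levels in ΔCT line 1, at 0.0698 to 0.269 TPM, against 2.31 to 6.44 TPM in rxeg1, where the libraries of number 1 (2.41 and 2.31 TPM) lay below those of number 2 (6.22 and 6.44 TPM). Niben101Scf10375g01011 had 0.913 to 1.56 TPM in ΔCT line 1, against 4.33 to 6.04 TPM in rxeg1. The choice of these 4 genes fixes their separation from every other line, so it is no support for their calls. With correlated units the other 3 also lost their calls against rxeg1 (limma adjusted p 0.30 for Niben101Scf11408g01009, 0.132 for Niben101Scf05584g04007 and 0.213 for Niben101Scf10375g01011).

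ΔCT line 1 was also set against a second line with the same construct. Against ΔCT line 2, ΔCT line 1 differed in 64 of 36922 genes tested, 0.173%, with 28 higher and 36 lower (limma, adjusted p under 0.05, 2933 genes at an unadjusted p under 0.05). The median standard error was 0.11. This comparison uses the same ΔCT line 1 libraries as that with rxeg1, so only values are set side by side. Of the 64 genes, 34 were among the 725 called against rxeg1 and in the same direction. A gene not called against ΔCT line 2 is not shown to be shared with it. Among genes called the same way in both comparisons, Niben101Scf02435g01015 differed most upwards (log2 difference 3.14 from ΔCT line 2 and 2.94 from rxeg1). Niben101Scf08006g01028 followed, with 9.77 to 11.5 TPM in ΔCT line 1, against 2.22 to 3.93 TPM in ΔCT line 2 and 4.12 to 5.82 TPM in rxeg1 (log2 differences 1.62 and 0.99, limma adjusted p 0.000353 and 0.0252). Downwards, Niben101Scf01124g00004 had log2 differences of -2.70 and -2.15 (adjusted p 5.44e-05 and 0.0161) and Niben101Scf05584g04007 of -2.63 and -2.10 (adjusted p 1.45e-05 and 0.0252). With correlated units the calls against ΔCT line 2 held for these genes, but the correlation estimated in that fit was -0.05. Libraries were thus taken as nearly independent there, and the held calls are no check. Against rxeg1, where the estimate was 0.62, calls were lost for Niben101Scf08006g01028 (limma adjusted p 0.224), Niben101Scf01124g00004 (0.10) and Niben101Scf05584g04007 (0.132). Niben101Scf01478g00014 was lower in ΔCT line 1 than in ΔCT line 2 as well, where it held 12.3 to 31.9 TPM (log2 difference -2.22, limma adjusted p 0.0301). Leaving out 1 library gave 33 to 105 calls, with 105 without ΔCT line 1 mock replicate 1, 33 without ΔCT line 1 XEG1 replicate 2 and, for ΔCT line 2, 37 and 39 without mock replicates 1 and 2 and 34 and 42 without XEG1 replicates 1 and 2.

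Against the Δ90-95/Q786AK791A line, ΔCT line 1 differed in 34 of 36624 genes, 0.0928%, with 22 higher and 12 lower (limma, adjusted p under 0.05, 4875 genes at an unadjusted p under 0.05). Higher genes were 64.7% of these calls, and 51.4% when libraries were scaled by median ratios. Of the 34 genes, 17 were called against rxeg1 in the same direction. The constructs of these lines differ by the stretch 90-95 and the substitutions Q786A and K791A named in the title. Niben101Scf02435g01015 was the highest relative to that line (log2 difference 2.98, limma adjusted p 0.000239), and Niben101Scf03925g01009 was next, with 11.9 to 18.3 TPM in ΔCT line 1, against 2.30 to 4.18 TPM in the Δ90-95/Q786AK791A line (log2 difference 2.05, adjusted p 0.000239). Niben101Scf05584g04007 and Niben101Scf00341g09018 were lower, by log2 differences of -1.94 and -1.92 (limma adjusted p 0.0401 and 0.0405). At Niben101Scf01478g00014 the difference of -1.08 did not pass the test (adjusted p 0.374), and the Δ90-95/Q786AK791A line held 2.88 to 19.7 TPM of it. With correlated units 17 genes were called, and Niben101Scf05584g04007 and Niben101Scf00341g09018 were not (limma adjusted p 0.0562 and 0.0961). Leaving out 1 library gave 9 without ΔCT line 1 mock replicate 1, 14 without mock replicate 2, 10 and 11 without XEG1 replicates 1 and 2, 20 without Δ90-95/Q786AK791A mock replicate 1 and 61 without its XEG1 replicate 2.

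The genes that separated ΔCT line 1 from rxeg1 had shifted levels in ΔCT line 2 and the Δ90-95/Q786AK791A line too. The median level of the 289 higher genes, on the log2(TPM + 1) scale, was 4.55 to 4.80 over the ΔCT line 1 libraries and 3.70 to 3.98 over those of rxeg1. It was 4.36 to 4.53 in ΔCT line 2, 4.29 to 4.49 in the Δ90-95/Q786AK791A line, 3.84 to 4.30 in the Δ90-95/Δ786-792 line and 3.84 to 4.13 in sobir1/sobir1-like. The median level of the 436 lower genes was 4.28 to 4.59 in ΔCT line 1 and 5.28 to 5.37 in rxeg1. It was 4.58 to 5.03 in ΔCT line 2 and 4.35 to 4.71 in the Δ90-95/Q786AK791A line. In the Δ90-95/Δ786-792 line it was 4.90 to 5.4 and in sobir1/sobir1-like 4.9 to 5.42. For both sets the Δ90-95/Q786AK791A and ΔCT line 2 libraries thus lay outside the range of rxeg1, on the side of ΔCT line 1. The ranges of the Δ90-95/Δ786-792 line and sobir1/sobir1-like overlapped that of rxeg1 in both sets. Wild type lay on the side of rxeg1, at 3.18 to 3.74 for the higher and 5.18 to 5.44 for the lower genes. In mock the wild-type level was nearer to ΔCT line 1 than to rxeg1 for 19 of the 289 higher genes (6.57%) and 25 of the 436 lower genes (5.73%), against 7039 of all genes tested (19.2%). ΔCT line 1 minus wild type had medians of 1.02 and -0.94 over the 2 sets. The sets were chosen for the distance between ΔCT line 1 and rxeg1, so these levels are descriptions without a test.

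**Figure D5:**
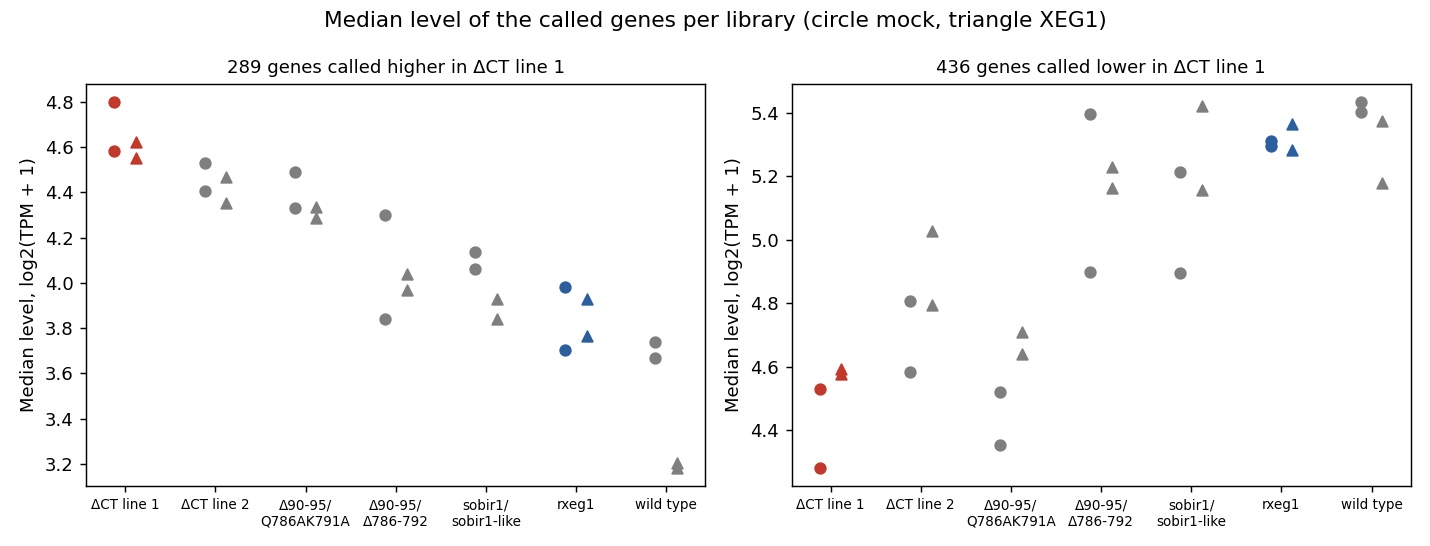
Median level per library, in log2(TPM + 1), of the 289 genes called higher (left) and the 436 called lower (right) in ΔCT line 1 against rxeg1, with genotypes on the horizontal axis, circles for mock and triangles for XEG1. ΔCT line 1 lies at 4.55 to 4.80 on the left and 4.28 to 4.59 on the right, with ΔCT line 2 and the Δ90-95/Q786AK791A line nearest to it. The vertical axes do not start at 0.

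From the 4 group means few genes were called for a response to XEG1 in either genotype, all of them with listed zeros. XEG1 against mock called 1 gene in ΔCT line 1 (0.00273% of those tested, 360 at an unadjusted p under 0.05) and 3 in rxeg1 (0.00818%, 157 unadjusted). The response itself differed between ΔCT line 1 and rxeg1 for 3 genes (0.00818%, 103 unadjusted), with a median standard error of 0.36 log2 units for this difference (limma, 4 group means). When all 14 groups were fitted limma called 0 genes in each of these comparisons, with 523, 248 and 185 at that unadjusted level in the order given. All these unadjusted counts lie below the 1833 reached if no gene differed and libraries were independent, and the cause was not tested. These fits do not model the pairing of rxeg1 libraries by number. Few calls do not show that no gene responded. Niben101Scf01281g06012 was the call in ΔCT line 1, with 10.7 and 11.4 TPM after XEG1 and a listed 0 in both mock libraries, and it had 9.73 and 9.40 TPM after XEG1 and a listed 0 in both mock libraries of rxeg1. Over the other genotypes it was listed at 0 or at 4.36 to 12.2 TPM in either treatment. Niben101Scf10440g00024 and Niben101Scf00033g07004 were listed at 0 in both XEG1 libraries of rxeg1 and at 54.6 and 54.9 TPM and 10.7 and 11.3 TPM in its mock libraries. In ΔCT line 1 they had 40.4 to 47.7 TPM and 9.62 to 11.2 TPM in all 4 libraries. Single libraries of other genotypes, mock ones included, also list them at 0. No fold is given for these genes.

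When mock and XEG1 libraries of the same genotype and number were taken as pairs, an analysis added after the data were examined with 2 residual degrees of freedom, limma called 2 genes for the response in ΔCT line 1, 5 in rxeg1 and 4 for the response difference. Unadjusted p under 0.05 was reached by 1131, 790 and 680 genes, again fewer than the 1833 reached if no gene differed. These calls include 2 genes without listed zeros in either genotype, named because they are few. Niben101Scf15393g00005, called in ΔCT line 1, had 2.59 and 1.16 TPM after XEG1 and 12.8 and 8.66 TPM in mock there, and 1.37 and 1.30 TPM after XEG1 and 6.09 and 4.86 TPM in mock in rxeg1. Both genotypes were lower after XEG1 in each pair. Niben101Scf07465g00001, called for the response difference, had 9.15 and 8.93 TPM after XEG1 and 3.94 and 3.07 TPM in mock in ΔCT line 1, against 2.01 and 3.10 TPM after XEG1 and 6.67 and 8.91 TPM in mock in rxeg1. Its libraries were thus higher after XEG1 in ΔCT line 1 and lower in rxeg1. The remaining calls were of genes listed at 0 in both libraries of a group, among them Niben101Scf02621g02019 in rxeg1 mock and the genes named elsewhere here.

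After XEG1 alone, 5 genes differed between ΔCT line 1 and rxeg1 (0.0136%, 2581 at an unadjusted p under 0.05), and in mock alone 1 gene did (3504 unadjusted). The 5 genes were Niben101Scf02435g01015 and Niben101Scf01478g00014, described above, and 3 that were listed at 0 in both rxeg1 XEG1 libraries, named because they are few. Niben101Scf04276g01015 was the third of these, with 7.52 and 8.94 TPM after XEG1 and 7.96 and 7.18 TPM in mock in ΔCT line 1, against 2.99 and 3.95 TPM in mock in rxeg1. The comparison within a treatment had 2 libraries a group and a median standard error of 0.25, so fewer calls there than over both treatments do not show a treatment-dependent difference.

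Genes that respond to XEG1 in wild type were lists taken from libraries outside the comparison. From the 4 wild-type libraries, 3375 genes rose and 5546 fell after XEG1 (limma, adjusted p under 0.05 and absolute log2 change of at least 1), of which 2601 and 5520 were tested here. Of the risen genes, 5 were higher and 79 lower in ΔCT line 1 than in rxeg1 (84 called, 3.23% of the 2601), against 1.98% of all genes. Of the fallen genes, 50 were higher and 124 lower (174 called, 3.15% of the 5520). The median log2 difference was -0.16 for the risen and -0.03 for the fallen genes, beside 0.08 over all genes tested. By replicate number, the risen genes had medians of -0.03 and -0.32, and the fallen genes of 0.11 and -0.18, in libraries of number 1 and number 2. The risen genes had a median response to XEG1 of 0.18 in ΔCT line 1, 0.10 in rxeg1 and 1.82 in wild type, where they were chosen, and the median of the difference between ΔCT line 1 and rxeg1 was 0.09, against 0.04 over all genes.

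The same lists had a smaller mean share of TPM in ΔCT line 1 than in rxeg1, but neither difference passed after adjustment. The risen genes held 3.637% and 2.736% of TPM in mock and 3.644% and 3.921% after XEG1 in ΔCT line 1, against 3.941% and 4.348% in mock and 4.379% and 4.705% after XEG1 in rxeg1. The highest ΔCT line 1 library was below the lowest rxeg1 library, by a small margin. The means were 3.48% ± 0.516 in ΔCT line 1 and 4.34% ± 0.313 in rxeg1 (SD, n = 4 each; exact permutation test, two-sided, p 0.0286, the smallest possible, and 0.0572 adjusted over 4 library measures). The fallen genes held 16.65% ± 1.2 in ΔCT line 1 and 19.2% ± 0.486 in rxeg1 (exact permutation test, two-sided, p 0.0286, adjusted 0.0572). After adjustment neither difference passed the threshold. Both already had the smallest possible p, so with the other measures as they were no larger difference could have passed. For the fallen genes too, every ΔCT line 1 library lay below every rxeg1 library. The test takes the 4 rxeg1 libraries as separate samples, although their levels paired by number. The 20 most abundant genes held 5.88% ± 1.04 in ΔCT line 1 and 5.72% ± 0.758 in rxeg1 (exact permutation test, two-sided, p 0.771), with ΔCT line 1 mock replicate 2 highest at 7.43%.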

How the data were processed

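RNA sequencing libraries were prepared from total RNA of 12-day-old seedlings with an MGIEasy kit, per the labels' protocols. The submitters' processing notes name HISAT2 2.0.4, a spliced aligner; for the genome build, annotation and quantification step: not given in the sources used here. Deposited values are TPM lists made by the authors, each summing to 1e+06; how reads shared by duplicated genes were assigned is not given. A combined file was not used here. Groups came from genotype, title and treatment labels; EV in titles was taken as mock. The labels do not say that replicates were separate plants, so p-values measure the spread between these libraries, which may be technical.

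Genes averaging 1 TPM or more across the libraries fitted were tested as log2(TPM + 1) with limma 3.58.1 (trend, robust; statmod 1.5.0, version 1.17.8 of data.table, R 4.3.3), two-sided, Benjamini-Hochberg adjusted p under 0.05. The genotype effect had treatment as covariate and 5 residual degrees of freedom; responses and within-treatment differences came from 4 group means (4 residual degrees of freedom). ΔCT line 2 and the Δ90-95/Q786AK791A line had fits of their own. Single library measures had exact permutation tests. The genotype fit was checked on simulated data with independent libraries, which leave out the pairing of rxeg1 libraries by number; the response fits were not simulated. The libraries were taken by their labels, while lists and tests were chosen with earlier results of these data known.

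Genes were named by rule: separated libraries, mean log2 level above 1 and the largest differences, 2 each way because identifiers lack names, and for the 2 other lines those called the same way against rxeg1. Genes outside the rule (the XEG1-only calls, the calls of the paired response fit, Niben101Scf00059g04022, and those apart together with wild type, with wild type and sobir1/sobir1-like, or alone) were chosen after their values were seen. A listed 0 can be a failed estimate. Alternatives were a pseudocount of 0.1, no filter, median-ratio scaling, a replicate block, all 14 groups, correlated units, no trend or robust step, a log2 threshold of 1, averaged libraries and libraries left out. Figures used matplotlib 3.10.9.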

Additional observations from a re-analysis of the deposited data

Results flagged for a closer look

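For 1 library standing apart, 30 groups of 4 libraries were checked, as many from ΔCT line 1 as from rxeg1. The measure was the gap to the neighbour, as a share of the whole range, above Dixon's critical value. Chance exceeds that value in about 1 group in 20. In 3 groups, all of them of ΔCT line 1, 1 library stood apart from the other 3. For Niben101Scf00739g00003 this was mock replicate 1, at 1.32 against 4.54, 4.89 and 5.15 on the log2(TPM + 1) scale (gap 0.841 of the range). For the number of genes at 1 TPM or more it was mock replicate 2, with 35932 genes against 36855 to 36910 (gap 0.944). For the share of the 20 most abundant genes it was again mock replicate 2, at 7.43% against 5.20% to 5.56% (gap 0.839).

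The response to XEG1 differed between ΔCT line 1 and rxeg1 for 3 genes, each with listed zeros (limma, adjusted p under 0.05). The fitted log2 response differences were 5.82 for Niben101Scf10440g00024, 3.60 for Niben101Scf00033g07004 and 3.37 for Niben101Scf00059g04022, and all depend on the pseudocount. Niben101Scf00059g04022 had 2.42 and 1.78 TPM after XEG1 and a listed 0 in both mock libraries of ΔCT line 1, against a listed 0 in both XEG1 libraries and 2.42 and 2.28 TPM in mock libraries of rxeg1. Whether these zeros are failed estimates was not tested.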

How the results depend on the processing

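Of the alternatives for the 725 genes called between ΔCT line 1 and rxeg1, a pseudocount of 0.1 (625 genes) stayed within 1.5 times that count. No filter gave 267, median-ratio scaling 1410, all 14 groups fitted together 3064, no trend or robust step 238, a log2 difference of at least 1 gave 191, correlated units 3 and averaged libraries 0. A replicate block on the number gave 2119; the labels do not tie the numbers to a shared source, and the deviations of same-numbered libraries correlated across genotypes at -0.018 in mock and -0.011 after XEG1, so the block is an alternative only. Libraries of number 1 only gave 18693 calls (14726 higher, 3967 lower) and of number 2 only 3231 (843 and 2388), which, like pairs of libraries left out (1102, 16151, 15 and 3), was chosen after seeing the data. Leaving out 1 library gave 4 to 787. The cause of these changes was not tested.

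Against ΔCT line 2, leaving out 1 library gave 33 to 105 calls. Against the Δ90-95/Q786AK791A line it gave 9 to 61, all 14 groups 76 and correlated units 17. For mock alone the count was 0 with a pseudocount of 0.1, 0 with no filter, 102 with all 14 groups and 0 to 5 with 1 library left out, and for XEG1 alone 2 to 9. With 1 library left out the response had 1 to 3 calls in ΔCT line 1, 3 to 5 in rxeg1 and 1 to 4 in their difference, all 3 counts being 0 with all 14 groups fitted, and the difference 1 with a replicate block. A replicate block within each genotype, chosen after seeing the data, gave 2, 5 and 4. The share of the risen list was lower in ΔCT line 1 by -1.005 to -0.6098 percentage points and of the fallen list by -2.99 to -2.01, each with 1 library left out. In 7 and 4 of 8 such exact permutation tests p was 0.0571, no longer under 0.05. In each of these tests every ΔCT line 1 library still lay below every rxeg1 library. The change in p comes from the few relabellings possible and is not read as a weaker difference. For 11 named genes under 23 alternatives each, 171 values kept the call, 82 lost it and 0 reversed. All 11 had every ΔCT line 1 library beyond every rxeg1 library. Leaving libraries out could therefore not reverse a sign, and the 0 is no support. Niben101Scf00739g00003 lost its call in 15, Niben101Scf03947g01007 in 12, Niben101Scf00341g09018 in 11 and the other 8 genes in 2 to 9 of the 23. TPM gives no depth, so no detection limit can be stated.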
